A study of Homo sapiens with 6 samples.

Results

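The ligands and secreted antagonists of the bone morphogenetic protein (BMP) and transforming growth factor beta (TGF-beta) pathways were followed in HepG2 libraries made with an shRNA against STAT3 and with a control shRNA. The set was 8 ligand genes (BMP2, BMP4, BMP6, BMP7, GDF15, TGFB1, TGFB2 and INHBB) and the antagonists NOG and FST, 10 of 27452 rows of the count table. They were chosen by gene symbol. The symbols found 9 of them, and TGFB1 was found by its Ensembl identifier, because the table gives that row the symbol AC011462.1.

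Each group had 3 libraries, and all 6 came from HepG2, an established human liver cancer line. The STAT3 shRNA cells carried a hairpin RNA that lowers the messenger RNA of the transcription factor STAT3, and the Ctrl shRNA cells carried a control hairpin. Both were constructed lines grown in the same serum-containing medium, and the labels do not say whether the libraries of a group are separate cultures, clones or hairpins. The p-values here therefore rest on library-to-library spread alone, possibly a technical one, and any other difference between the constructed lines cannot be told apart from the hairpin. Libraries held 17694642 to 25862027 counts with STAT3 shRNA and 17408543 to 20133064 with Ctrl shRNA. Levels are given in CPM, a gene's counts scaled to library size after a correction for library composition. STAT3 shRNA libraries held 34.8, 35.8 and 36.2 CPM of STAT3 itself, against 261.5, 246.7 and 246.3 CPM with Ctrl shRNA.

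The labelled cell type was only partly borne out by its markers. Of 12 hepatocyte and HepG2 markers, 6 had a row in the table as analysed here, and ALB and APOA1 among these had at most 3 counts in every library. The keratins KRT8 and KRT18 were abundant in all libraries and made up most of the summed marker level, 4479 to 4910 CPM with STAT3 shRNA and 2720 to 3254 CPM with Ctrl shRNA (exact two-sided permutation p = 0.1, the smallest that 3 against 3 libraries can give). KRT8, KRT18 and the hepatocyte factor HNF4A were called higher. Of 8 fibroblast markers 6 had a row and 4 were tested, with ACTA2 higher and COL1A1 lower, and the list summed to 42.0 to 44.9 CPM with STAT3 shRNA and 56.2 to 65.7 CPM with Ctrl shRNA (exact permutation p = 0.1). Of 6 macrophage and leukocyte markers 4 had a row, and only CD68 was tested and was higher. The list summed to 20.9 to 28.2 CPM with STAT3 shRNA and 11.3 to 16.5 CPM with Ctrl shRNA (exact permutation p = 0.1). CD68 made up most of this sum, averaging 24.2 CPM with STAT3 shRNA and 13.6 CPM with Ctrl shRNA. Among the untested markers CSF1R went the other way, at 0.0703 and 0.482 CPM in the same order. CD14 (0.125 and 0.124 CPM) and LYZ (0.247 and 0.230 CPM) were nearly level. Of 5 endothelial markers 3 had a row, only CDH5 was tested and it was not called, and TEK had at most 3 counts in every library. The list summed to 1.28 to 1.75 CPM with STAT3 shRNA and 1.21 to 1.76 CPM with Ctrl shRNA (exact permutation p = 0.8). Within this sum CDH5 averaged 0.750 CPM with STAT3 shRNA and 1.31 CPM with Ctrl shRNA. VWF, too low to be tested, went the other way at 0.709 and 0.0722 CPM. The part of these marker shifts in the results was not tested. All 6 libraries are labelled HepG2, and the labels name no other cell type. In bulk RNA a smaller number of cells of a type and less RNA per cell cannot be told apart.

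BMPs and TGF-betas are secreted dimers that bring together type I and type II receptor kinases. BMPs pass their signal through SMAD1, SMAD5 and SMAD9, while TGF-betas and activins use SMAD2 and SMAD3, and SMAD4 joins both branches. Secreted antagonists hold the ligands away from the receptors: noggin (NOG) binds BMPs, and follistatin (FST) binds activins. In liver, BMP2 and BMP6, supplied largely by sinusoidal endothelial cells, drive the iron hormone hepcidin (HAMP) in hepatocytes, and TGFB1 is best known for fibrosis.

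Promoter sequences are shown for GDF15 and TGFB2, which were higher with STAT3 shRNA and whose windows hold the letters TATAAA of a TATA box, and for BMP6, which was lower and whose window does not hold these letters. BMP4 (all 3 starts), TGFB1 and INHBB were also higher and their windows lack TATAAA, and BMP6 is the only lower gene with a window. Sequences are from a set of RefSeq promoter windows (GRCh38.p14), and the set used here covered 7 of the 10 genes. Each is the 250 bases that end just before the transcription start, 5′ to 3′ on the gene's strand, with the letters TATAAA in capitals. GDF15 is at chr19:18385908-18386157 (+ strand), TGFB2 at chr1:218345086-218345335 (+ strand) and BMP6 at chr6:7725849-7726098 (+ strand).
GDF15: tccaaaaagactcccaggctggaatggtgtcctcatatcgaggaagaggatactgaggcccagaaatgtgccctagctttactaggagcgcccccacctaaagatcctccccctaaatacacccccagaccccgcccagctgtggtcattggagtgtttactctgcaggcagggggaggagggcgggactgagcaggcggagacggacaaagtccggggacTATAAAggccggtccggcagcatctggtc
TGFB2: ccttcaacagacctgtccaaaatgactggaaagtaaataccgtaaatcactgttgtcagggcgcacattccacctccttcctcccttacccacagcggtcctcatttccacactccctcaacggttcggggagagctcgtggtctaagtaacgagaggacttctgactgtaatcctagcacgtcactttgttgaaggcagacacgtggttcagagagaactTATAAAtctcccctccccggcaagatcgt
BMP6: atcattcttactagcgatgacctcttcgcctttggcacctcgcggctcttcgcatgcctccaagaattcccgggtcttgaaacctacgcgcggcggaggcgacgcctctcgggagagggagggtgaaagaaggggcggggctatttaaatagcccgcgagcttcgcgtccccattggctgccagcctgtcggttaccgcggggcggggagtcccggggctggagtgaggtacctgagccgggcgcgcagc

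The TATAAA match began 29 bases before the start in both GDF15 and TGFB2. On either strand, 10.7% of the 35116 promoter windows of the same length in the table held these letters, and 2 of the 9 windows of the set did (BMP4 has 3 starts). The STAT motif TTCNNNGAA was in none of the 9 windows and in 6.57% of all windows. The element GGCGCC, which BMP SMADs can bind, was in the windows of BMP4 (1 of its 3 starts) and INHBB, and in 16.4% of all windows. The INHBB window was 89.6% G and C, against a median of 58% over all windows. The palindromes TGACGTCA and GTCTAGAC were in none of the 9, and in 1.65% and 0.182% of all windows. Both strands were searched for each motif, and no match in the 9 windows overlapped another.

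The genes were compared between the groups to ask which ligands and antagonists differed with the STAT3 shRNA. Of the 10, 8 passed the filter on low counts, each with at least 35 counts in every library of both groups. All 8 were called at a false discovery rate (FDR) of 0.05, 5 higher and 3 lower with STAT3 shRNA, against 17.5% of the 14999 genes tested that were called at all, 9.39% higher and 8.13% lower. With library totals as the only scaling, 1916 genes were higher and 874 lower (68.7% higher, against 53.6% with the scaling used), and the split of the 8 stayed at 5 and 3. The 3 STAT3 shRNA libraries did not overlap the 3 Ctrl shRNA libraries for any of the 8, as for 35.7% of tested genes. The set was put together with results of these data known, so these counts describe it and are no independent evidence. In the text below, levels are mean CPM ± SD (n = 3 per group), and log2 fold changes are STAT3 shRNA over Ctrl shRNA ± SE from edgeR's quasi-likelihood test, adjusted over all tested genes. Exons are those of the annotation.

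**Figure D1:**
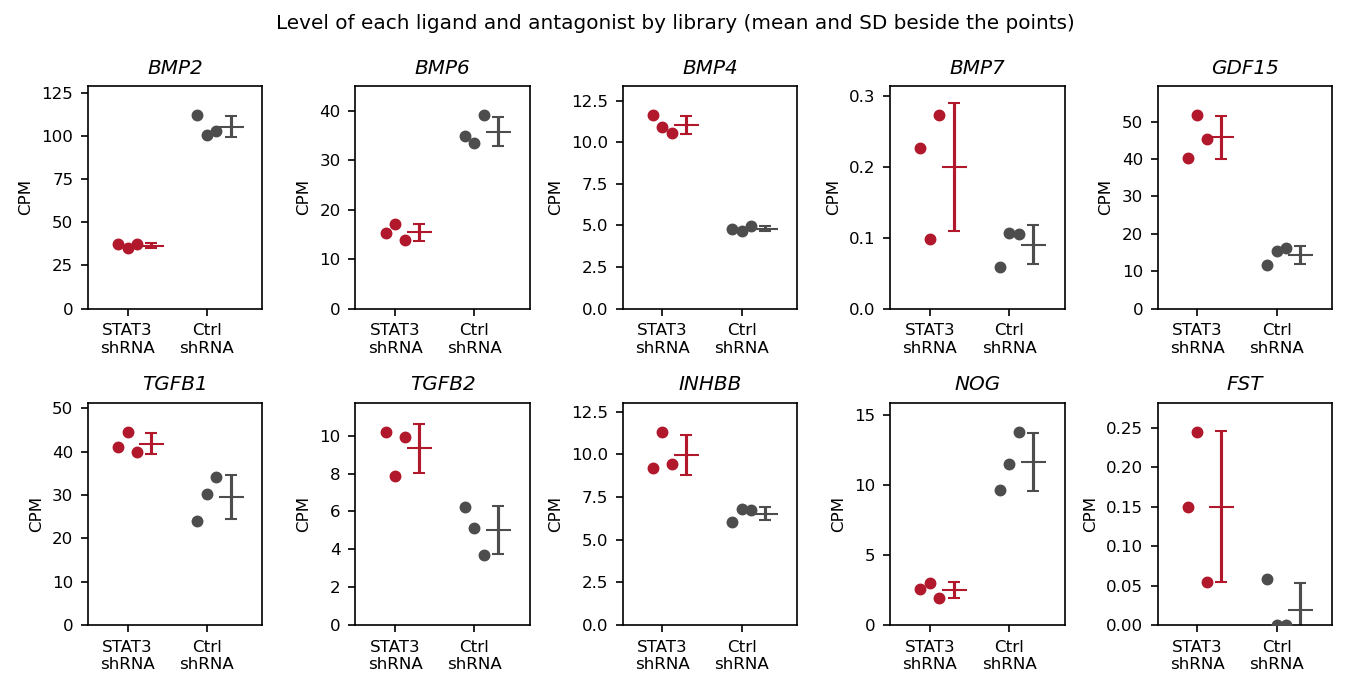
Level of each gene in CPM (vertical axes start at 0 and differ by panel) in the 3 STAT3 shRNA libraries (red) and the 3 Ctrl shRNA libraries (grey), with the mean and SD at the right of the points. BMP2, BMP6 and NOG are lower with STAT3 shRNA in every library, BMP4, GDF15, TGFB1, TGFB2 and INHBB are higher, and BMP7 and FST stay under 0.3 CPM.

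The BMP genes went in opposite directions. BMP2 (ENSG00000125845.7, 3 exons on chromosome 20), a ligand of bone, heart and liver iron control, lay at 37.2, 34.8 and 37.5 CPM with STAT3 shRNA and at 112.2, 100.6 and 103.1 CPM with Ctrl shRNA. The STAT3 shRNA libraries are all low and close together, 2.88-fold lower than Ctrl shRNA (log2 fold change -1.53 ± 0.0902, edgeR adjusted p = 1.19e-05). BMP6 (ENSG00000153162.9, 7 exons on chromosome 6), the main iron-sensing ligand of the liver, lay at 15.3, 17.1 and 13.8 CPM with STAT3 shRNA, against 34.9, 33.4 and 39.2 CPM with Ctrl shRNA. It was 2.32-fold lower (-1.22 ± 0.12, edgeR adjusted p = 0.000193), with no overlap.

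BMP4 (ENSG00000125378.16, 4 exons on chromosome 14), a close relative of BMP2 that uses the same receptors, was higher. It lay at 11.7, 10.9 and 10.6 CPM with STAT3 shRNA and at 4.78, 4.64 and 4.96 CPM with Ctrl shRNA. Each group was tight, with a coefficient of variation of 4.98% and 3.25%, and the difference was 2.30-fold (1.20 ± 0.133, edgeR adjusted p = 0.000364).

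BMP7 (ENSG00000101144.13, 7 exons on chromosome 20), a ligand of kidney development, was at the limit of detection. It had 6, 2 and 5 counts with STAT3 shRNA and 1, 2 and 2 with Ctrl shRNA, and 3 counts amount to 0.113 to 0.175 CPM in these libraries. The ratio of its summed counts, scaled to library size, was 2.18 (95% exact interval 0.730 to 7.82), so no difference was detectable at this depth. Such intervals cover counting error only.

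GDF15 (ENSG00000130513.6, 2 exons on chromosome 19), a distant family member that signals through the receptor GFRAL in the hindbrain and is released by stressed cells, had the largest rise of the 8 tested genes. It lay at 40.2, 51.8 and 45.5 CPM with STAT3 shRNA and at 11.6, 15.3 and 16.2 CPM with Ctrl shRNA. The lowest STAT3 shRNA library was above the highest Ctrl shRNA library, a 3.18-fold difference (1.67 ± 0.151, edgeR adjusted p = 0.000121). Its size exceeded that of 96.8% of tested genes.

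The TGF-beta and activin genes were higher by smaller amounts than GDF15 and BMP4, and each of the 3 calls was lost in some settings that leave out a library. TGFB2 (ENSG00000092969.12, 8 exons on chromosome 1), an isoform of embryonic and epithelial tissue, lay at 10.2, 7.86 and 9.92 CPM with STAT3 shRNA and at 6.24, 5.13 and 3.69 CPM with Ctrl shRNA (0.90 ± 0.209, edgeR adjusted p = 0.0176). Its Ctrl shRNA libraries were spread, with a coefficient of variation of 25.5%. The call was lost without STAT3 shRNA library 1 (adjusted p = 0.0839), STAT3 shRNA library 3 (0.0784) or Ctrl shRNA library 2 (0.0697). A separate row, TGFB2-OT1, overlaps 1371 exonic bases of TGFB2 on the same strand, and had 30, 1 and 18 counts with STAT3 shRNA and 0, 0 and 1 with Ctrl shRNA, so a few TGFB2 reads may have been counted there.

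INHBB (ENSG00000163083.6, 2 exons on chromosome 2) encodes the beta-B subunit of activin B and inhibin B. It lay at 9.21, 11.3 and 9.43 CPM with STAT3 shRNA and at 6.07, 6.78 and 6.75 CPM with Ctrl shRNA, so that all 3 STAT3 shRNA libraries were higher (0.61 ± 0.145, edgeR adjusted p = 0.0190). The call was lost without STAT3 shRNA library 2 (adjusted p = 0.0690), STAT3 shRNA library 3 (0.0596) or Ctrl shRNA library 2 (0.0681).

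TGFB1 (ENSG00000105329.9, 7 exons on chromosome 19), the fibrogenic isoform, lay at 41.0, 44.7 and 40.0 CPM with STAT3 shRNA and at 24.0, 30.3 and 34.2 CPM with Ctrl shRNA. The groups do not overlap, but the Ctrl shRNA libraries spread over a wider range (0.51 ± 0.134, edgeR adjusted p = 0.0301), and the adjusted p was the largest of the 8. The call was lost without STAT3 shRNA library 1 (adjusted p = 0.0961), 2 (0.0870) or 3 (0.0829) and without Ctrl shRNA library 2 (0.103). The row is uncertain in another way: its symbol belongs in GENCODE 29 to a different locus on the opposite strand, and 215 exonic bases of TGFB1 lie opposite exons of HNRNPUL1, which was not called (log2 fold change 0.11 ± 0.0808). The strand setting of the libraries is not given in the sources used here, so reads of opposite strands cannot be told apart.

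NOG (ENSG00000183691.4, 1 exon on chromosome 17) had the largest change of the 8. It lay at 2.59, 2.995 and 1.91 CPM with STAT3 shRNA and at 9.62, 11.5 and 13.8 CPM with Ctrl shRNA. All 3 STAT3 shRNA libraries were far below the lowest Ctrl shRNA library, a 4.63-fold lower level (-2.21 ± 0.213, edgeR adjusted p = 0.000171). FST (ENSG00000134363.12, 6 exons on chromosome 5), the activin antagonist, was barely detected. It had 4, 5 and 1 counts with STAT3 shRNA and 1, 0 and 0 with Ctrl shRNA, and the ratio of summed counts was 8.40 with a 95% exact interval of 1.20 to 364. With no filter on low counts, neither FST nor BMP7 was called (edgeR adjusted p = 0.349 and 0.606).

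**Figure D2:**
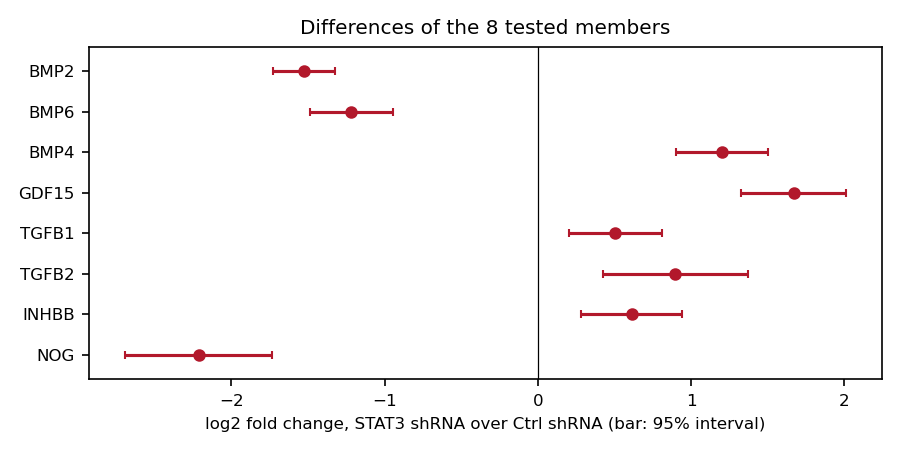
Log2 fold change of the 8 tested genes, STAT3 shRNA over Ctrl shRNA, with bars for the 95% interval; all 8 were called. BMP2, BMP6 and NOG lie below 0 (-1.53, -1.22 and -2.21), and the other 5 lie above 0, from 0.51 for TGFB1 to 1.67 for GDF15.

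Levels per kilobase of the longest annotated transcript allow genes to be ranked within a group. With STAT3 shRNA, GDF15 was first at 33.5 to 43.2 CPM per kilobase, followed by TGFB1 at 14.5 to 16.1 and BMP2 at 9.67 to 10.4. BMP4 (5.52 to 6.08) and BMP6 (4.96 to 6.16) followed and overlapped, then INHBB at 2.87 to 3.54. TGFB2 (1.56 to 2.02) and NOG (1.009 to 1.58) came last of the tested genes and overlapped. With Ctrl shRNA, BMP2 was first at 27.9 to 31.2 CPM per kilobase. BMP6 (12.02 to 14.1), GDF15 (9.67 to 13.5) and TGFB1 (8.68 to 12.3) overlapped behind it, before NOG at 5.09 to 7.30, BMP4 at 2.42 to 2.59, INHBB at 1.89 to 2.12 and TGFB2 at 0.730 to 1.24.

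Ligand by ligand, the make-up of the pool differed between the groups. The 8 ligand messages summed to 79.8 ± 5.54 CPM per kilobase with STAT3 shRNA and 70.3 ± 3.27 with Ctrl shRNA (SD, n = 3 each). GDF15 took 47.8 ± 2.9% of this sum with STAT3 shRNA and 16.99 ± 2.34% with Ctrl shRNA, and BMP2 took 12.8 ± 1.34% and 41.7 ± 3.85% in the same order. Among the 4 BMPs alone the sum was 21.5 ± 0.512 CPM per kilobase with STAT3 shRNA, against 44.7 ± 1.99 with Ctrl shRNA. BMP4 took 26.8 ± 0.746% of it with STAT3 shRNA, against 5.61 ± 0.179% with Ctrl shRNA, and the BMP2 to BMP4 ratio was 1.76 ± 0.108, against 11.7 ± 0.725. BMP6 kept a like share, 25.8 ± 2.55% with STAT3 shRNA and 28.9 ± 2.02% with Ctrl shRNA, with overlapping libraries. NOG amounted to 6.13 ± 1.27% of the BMP sum with STAT3 shRNA and 13.8 ± 2.59% with Ctrl shRNA, and the libraries did not overlap (4.81 to 7.35% with STAT3 shRNA, 11.01 to 16.1% with Ctrl shRNA). These shares follow from the values above and were not tested separately.

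**Figure D3:**
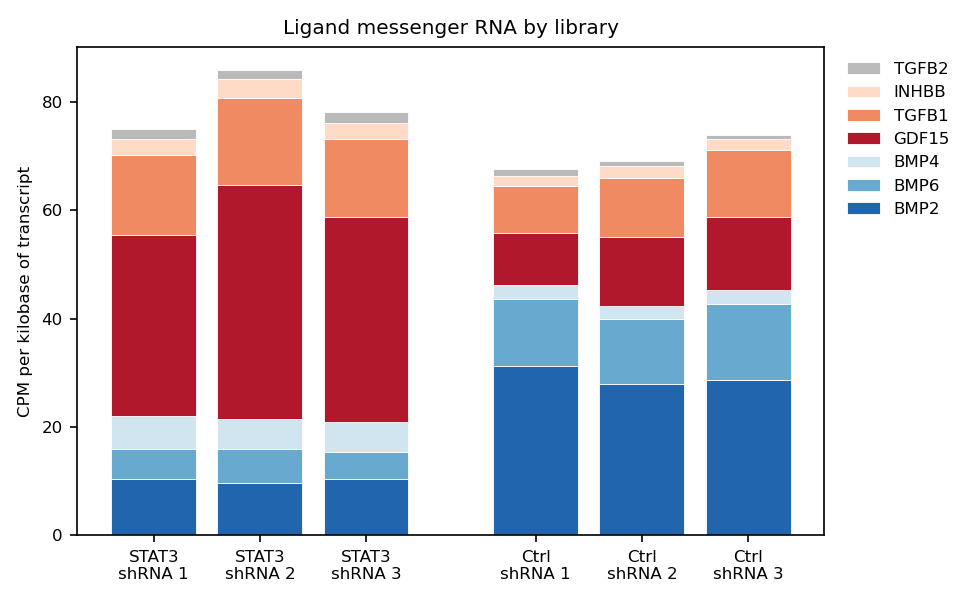
Ligand messenger RNA in CPM per kilobase of transcript, stacked by gene for each of the 3 STAT3 shRNA and 3 Ctrl shRNA libraries (BMP7, under 0.1, is not drawn). The BMP2 and BMP6 blocks are smaller with STAT3 shRNA and the GDF15 block is larger, while the bars reach 75.2 to 85.9 with STAT3 shRNA and 67.7 to 74.0 with Ctrl shRNA.

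The rest of the pathway was then read from lists of genes chosen by known role, with earlier results of these data known. The list counts therefore describe the lists and are no independent evidence. Some genes, SMAD6 and PMEPA1 among the called ones, stand in more than 1 list and are counted in each. List medians are log2 fold changes over the tested members, beside -0.0067 over all tested genes. The 17.5% called over all genes is the background for each count. Calls were recomputed under 12 alternative settings, 6 of which leave out a library. How many of a list's called genes kept their call under all 12 is given with each list.

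Few other ligands were detected. Of 25, 18 had a row and 7 were tested, of which 1 was higher and 1 lower (28.6%, median 0.46). The inhibin alpha subunit INHA, which pairs with the product of INHBB to make inhibin B, was lower at 1.39, 1.08 and 1.69 CPM with STAT3 shRNA, against 3.50, 4.91 and 4.43 CPM with Ctrl shRNA (-1.63 ± 0.253, edgeR adjusted p = 0.00226), and kept its call under all 12. BMP8B was higher (0.50 ± 0.133, edgeR adjusted p = 0.0300), with reads that may be shared with the near-identical BMP8A. The BMP8B call was lost without STAT3 shRNA library 1 (adjusted p = 0.153) or 3 (0.0959) and without Ctrl shRNA library 2 (0.125) or 3 (0.0568). The list held 1 call without STAT3 shRNA library 1 or 3 or Ctrl shRNA library 2. TGFB3 (0.46 ± 0.194), AMH (0.49 ± 0.239) and GDF11 (0.31 ± 0.156) were not called.

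Other antagonists divided. Of 9 tested, 2 were higher and 3 lower (55.6%, median 0.13). FSTL3, a secreted activin and myostatin binder related to follistatin, was lower at 259.9, 306.6 and 254.3 CPM with STAT3 shRNA and 523, 664 and 823 CPM with Ctrl shRNA (-1.29 ± 0.158, edgeR adjusted p = 0.00059). TWSG1, which helps chordin hold BMPs, was higher at 55.9, 61.6 and 66.0 CPM with STAT3 shRNA, against 25.8, 26.6 and 23.2 CPM with Ctrl shRNA (1.28 ± 0.106, edgeR adjusted p = 8.01e-05). WFIKKN1, a binder of GDF11 and myostatin, averaged 0.0828 ± 0.0763 CPM with STAT3 shRNA and 1.10 ± 0.469 CPM with Ctrl shRNA (-3.53 ± 0.674, edgeR adjusted p = 0.00673). FSTL3, TWSG1 and WFIKKN1 kept their calls under all 12 settings. The BMP antagonist NBL1 (-0.56 ± 0.161) was called lower but lost the call in 8 of 12, among them without any 1 STAT3 shRNA library and without Ctrl shRNA library 2 or 3, and the TGF-beta co-receptor CD109 (0.52 ± 0.116) was called higher but lost it without STAT3 shRNA library 1 or 3 or Ctrl shRNA library 2, and under each of these 3 settings the list held 3 calls. FSTL1 (0.13 ± 0.0858), CRIM1 (0.13 ± 0.112) and DCN (0.30 ± 0.134) were not called. SOST, CHRDL2 and BMPER had at most 3 counts in every library.

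Genes that hold ligands latent or activate them had 5 higher and 5 lower of 15 tested (66.7%, median 0.12). LTBP1, which stores latent TGF-beta in the matrix, was lower at 12.95 ± 0.702 CPM with STAT3 shRNA, against 24.4 ± 1.04 CPM with Ctrl shRNA (-0.91 ± 0.105, edgeR adjusted p = 0.000433). Fibrillin FBN1, the matrix anchor of these stores, was higher at 132 ± 8.36 CPM, against 52.5 ± 7.98 CPM with Ctrl shRNA (1.33 ± 0.12, edgeR adjusted p = 0.00012). Among the convertases that cut ligand precursors, PCSK6 was higher (0.68 ± 0.0791, edgeR adjusted p = 0.00047) and FURIN lower (-0.53 ± 0.114, edgeR adjusted p = 0.0122). The FURIN call was lost without STAT3 shRNA library 1 (adjusted p = 0.0676) or 3 (0.0669). HTRA1, a secreted protease that acts on TGF-beta family proteins, was higher (0.59 ± 0.0923, edgeR adjusted p = 0.00232), and ITGB8, part of an integrin that frees latent TGF-beta, was lower (-0.76 ± 0.169, a call lost without STAT3 shRNA library 1 or 3 or Ctrl shRNA library 2). LTBP3 (0.14 ± 0.106), LTBP4 (0.42 ± 0.126) and the convertase PCSK7 (-0.31 ± 0.0987) were not called. LTBP1, FBN1, PCSK6 and HTRA1 kept their calls under all 12. The list held 4 calls without STAT3 shRNA library 1 or 3 and 5 without Ctrl shRNA library 2.

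Of 13 tested receptors and co-receptors, 4 were higher and 1 lower (38.5%, median 0.18). The co-receptors ENG (26.9 ± 0.614 CPM with STAT3 shRNA, 1.23 ± 0.275 CPM with Ctrl shRNA) and TGFBR3 (31.4 ± 0.522 CPM and 15.9 ± 2.36 CPM in the same order) were higher and kept their calls under all 12. BMPR2, the BMP type II receptor, was lower (-0.68 ± 0.156, edgeR adjusted p = 0.0166), a call lost without STAT3 shRNA library 2 (adjusted p = 0.0553) or 3 (0.0621) and without Ctrl shRNA library 2 (0.0703). NEO1, a co-receptor for repulsive guidance molecules, was higher (1.02 ± 0.214), a call lost without STAT3 shRNA library 3 or Ctrl shRNA library 2. RGMA was called higher (1.12 ± 0.334) but lost its call in 10 of 12 settings, without any 1 of the 6 libraries among them. Without STAT3 shRNA library 3 or Ctrl shRNA library 2, 2 calls were left in the list. The type I receptors BMPR1A (0.21 ± 0.129) and ACVR1B (0.20 ± 0.0972) and the type II receptor TGFBR2 (-0.16 ± 0.115) were not called.

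**Figure D4:**
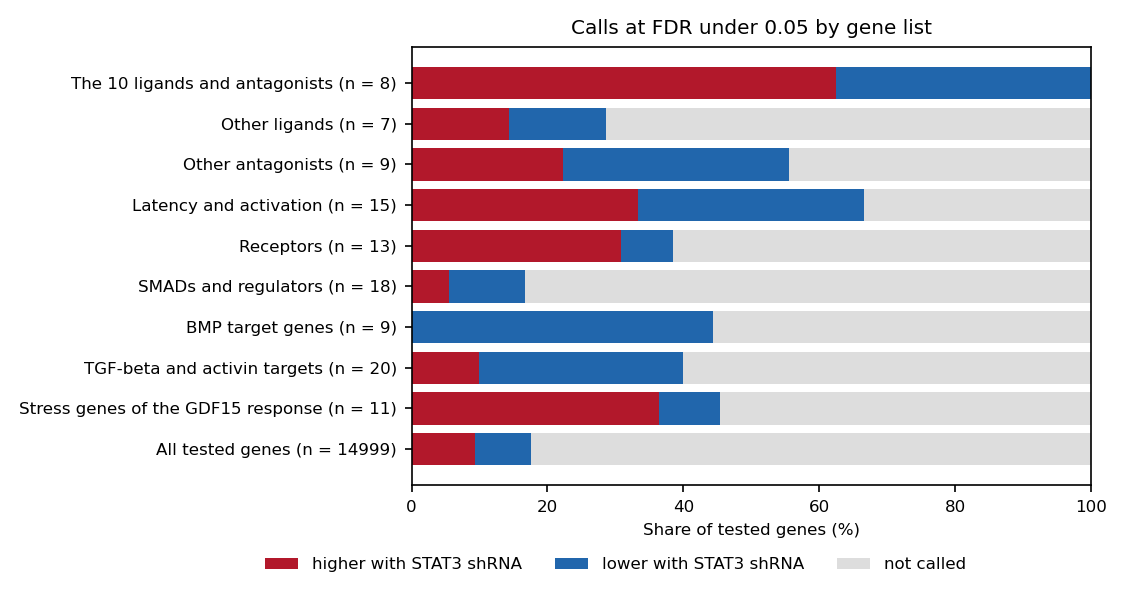
Share of the tested genes of each list that was called higher (red), called lower (blue) or not called (grey) at an FDR under 0.05, with the number tested in brackets and all tested genes in the bottom row. All 9 BMP target genes are lower or not called, and the lists for ligand latency and for other antagonists hold calls in both directions.

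Of 18 tested SMADs and intracellular regulators, 1 was higher and 2 lower (16.7%, near the background, median -0.081), and with library totals or upper-quartile factors 2 were higher and 2 lower. SMAD6, the inhibitory SMAD that BMP signals induce, was lower at 32.4, 37.4 and 35.0 CPM with STAT3 shRNA and 56.9, 66.5 and 76.4 CPM with Ctrl shRNA (-0.93 ± 0.124, edgeR adjusted p = 0.000919). PMEPA1, a TGF-beta-induced inhibitor, was lower (-0.56 ± 0.109, edgeR adjusted p = 0.00753), and both kept their calls under all 12. SMAD3 was higher (0.36 ± 0.0836, edgeR adjusted p = 0.0174), which was lost without any 1 STAT3 shRNA library (adjusted p = 0.0791, 0.0501 and 0.0911) or Ctrl shRNA library 2 (0.0880). The list had 5 calls with DESeq2 and without Ctrl shRNA library 1 or 3. BAMBI, SKI and TGIF1 were not called.

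Known BMP target genes were lower where they were called. Of 9 tested, 0 were higher and 4 lower (44.4%, median -0.49). ID1, which encodes an inhibitor of differentiation factors and is a standard readout of BMP signalling, lay at 60.1, 67.7 and 62.6 CPM with STAT3 shRNA and at 118.6, 126.5 and 189.4 CPM with Ctrl shRNA (-1.19 ± 0.168, edgeR adjusted p = 0.0013). Its Ctrl shRNA libraries were spread, but the lowest was well above every STAT3 shRNA library. ID3 lay at 84.3, 103.8 and 93.3 CPM with STAT3 shRNA and at 136.1, 140.6 and 187.4 CPM with Ctrl shRNA (-0.72 ± 0.138, edgeR adjusted p = 0.00675). ID1, ID3 and SMAD6 kept their calls under all 12 settings. ATOH8, a BMP-responsive factor of the hepatocyte, was called lower (-0.61 ± 0.173, edgeR adjusted p = 0.0403), a call lost in 7 of 12: with library totals or upper-quartile factors, without any 1 STAT3 shRNA library, and without Ctrl shRNA library 2 or 3. SMAD7 (0.18 ± 0.176), BAMBI (0.16 ± 0.121) and MSX1 (-0.49 ± 0.175) were not called. HAMP, the hepcidin gene, had 0 counts in all 6 libraries, which allows up to 3 counts, or 0.113 to 0.175 CPM.

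**Figure D5:**
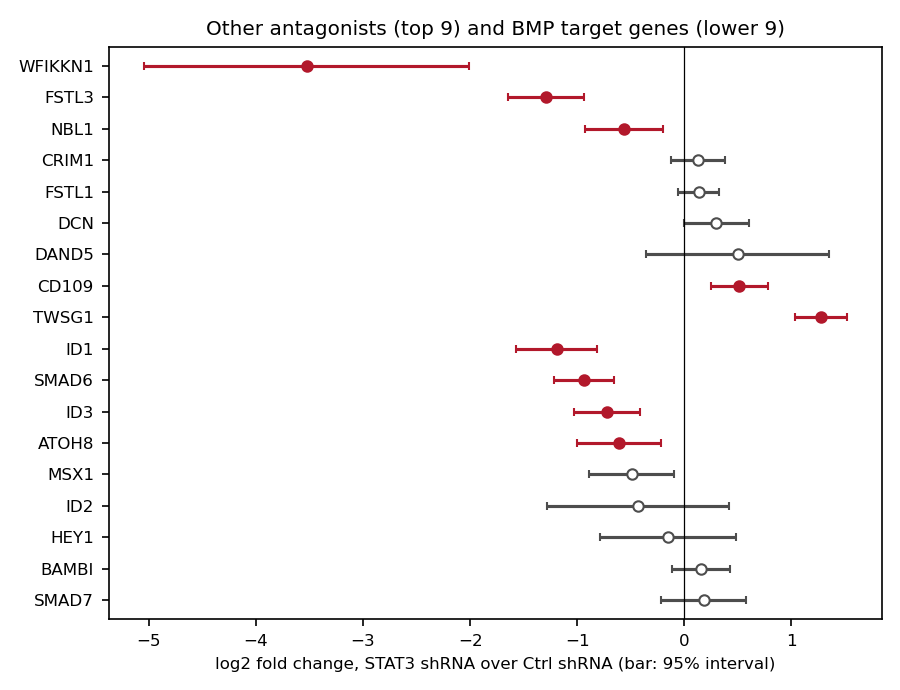
Log2 fold change, STAT3 shRNA over Ctrl shRNA, of 9 other antagonists (upper) and 9 BMP target genes (lower), with 95% intervals. Filled red points were called and open grey points were not. ID1, SMAD6, ID3 and ATOH8 lie below 0 among the targets, and TWSG1 at 1.28 and FSTL3 at -1.29 lie on opposite sides among the antagonists.

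Of 20 tested genes that TGF-beta or activin induce in other cells, 2 were higher and 6 lower (40.0%, median -0.28). With library totals 4 were higher and 6 lower, with upper-quartile factors 3 and 6, and without 1 library the list held 6 to 8 calls. BHLHE40, a clock and hypoxia repressor, was lower at 59.4 ± 4.25 CPM with STAT3 shRNA, against 153 ± 8.81 CPM with Ctrl shRNA. The collagens COL1A1 (-1.40 ± 0.108) and COL4A1 (-0.82 ± 0.0996) and the transcription factor SNAI2 (-0.997 ± 0.22) were also lower. CCN2, a matrix-associated growth factor, was higher at 26.3, 30.4 and 44.2 CPM with STAT3 shRNA, against 15.5, 16.0 and 14.8 CPM with Ctrl shRNA (1.12 ± 0.183, edgeR adjusted p = 0.00284). These genes and PMEPA1 kept their calls under all 12. The remaining higher gene lost its call in 9 of 12 settings, and the remaining lower gene in 7. CDKN1A (-0.23 ± 0.136), JUNB (-0.58 ± 0.228) and TPM1 (0.21 ± 0.0838) were not called.

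Genes of the stress responses that are known to raise GDF15 did not move as one. Of 11 tested, 4 were higher and 1 lower (45.5%, median 0.30). ATF3, a stress-induced factor, was higher at 38.9 ± 1.24 CPM with STAT3 shRNA, against 20.6 ± 2.76 CPM with Ctrl shRNA (0.91 ± 0.119, edgeR adjusted p = 0.000811). EGR1, an immediate early factor, was higher (0.66 ± 0.102, edgeR adjusted p = 0.00226), and TRIB3, a target of the integrated stress response, was lower (-0.70 ± 0.127, edgeR adjusted p = 0.00519). ATF3, EGR1 and TRIB3 kept their calls under all 12. SESN2, a stress-induced sestrin, was called higher (0.63 ± 0.144) and lost the call without STAT3 shRNA library 1 or 2 or Ctrl shRNA library 2. ATF4 (-0.14 ± 0.0812), ASNS (-0.07 ± 0.0933) and CDKN1A were not called. The list held 3 calls without STAT3 shRNA library 1 or 2 or without Ctrl shRNA library 2.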

How the data were processed

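Gene expression was measured by RNA sequencing of total RNA, per the labels. The authors deposited 1 table of whole-number counts per gene, raw as far as its values show. Its aligner, counting program, strand setting, annotation and genome build are not given in any source used here. From these counts, edgeR 4.0.16 in R 4.3.3 was run as follows: filterByExpr (minimum count 10, minimum total 15) kept 14999 of 27452 rows, libraries were scaled by TMM, and each gene was tested with the robust quasi-likelihood F test, two-sided, group only, with Benjamini-Hochberg adjustment over all tested genes at an FDR of 0.05. TMM assumes that most genes do not differ. Transcript length, exons and overlaps came from GENCODE 29, matched by identifier.

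The genes, lists and tests were chosen with earlier results of these data known. Named genes are the 10, STAT3, and from each list up to 6 called genes with the smallest adjusted p and up to 3 uncalled ones with the highest level per kilobase. Some genes that this rule or the lists hold are not reported here. Libraries of a group differed by more than sampling noise, with a chi-square of 4.39 to 46.8 per degree of freedom. Alternatives were 3 other scalings, no filter, DESeq2 1.42.0, a replicate block, and leaving out each library.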

Additional observations from a re-analysis of the deposited data

How the results depend on the processing

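All 8 tested genes kept their direction under all 12 alternatives. BMP2, BMP4, BMP6, GDF15 and NOG also kept their calls, with log2 fold changes of -1.56 to -1.43, 1.16 to 1.30, -1.30 to -1.12, 1.55 to 1.77 and -2.35 to -2.06. TGFB1, TGFB2 and INHBB together lost 10 calls, all when a library was left out. The count of called members, 8, was 5 to 8 without 1 library, with 5 without STAT3 shRNA library 3 or Ctrl shRNA library 2. Over all genes, 2627 calls became 1462 to 4098 without 1 library. With library totals 68.7% of calls were higher, with upper-quartile factors 62.3% and here 53.6%, which left the split of the set at 5 higher and 3 lower. The replicate block gave 2278 calls over all genes and 8 in the set. Same-numbered libraries correlated at 0.279, 0.191 and -0.227 in their deviations from group means, and differently numbered ones at -0.461 to 0.333. The same-numbered values thus did not stand out, but with 3 libraries per group they cannot settle whether the numbers pair the libraries. Depth limits BMP7 and FST.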
